A study of Mus musculus with 6 samples.

Results

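The 10 genes described here hold back the cell cycle or belong to the p53 circuit, and they were measured in mouse colon adenocarcinoma cells sorted from orthotopic tumors. They were chosen by name, with earlier normalized counts of these 6 libraries already known, and all 10 were found among the 22880 genes of the table. The CDK inhibitors were Cdkn1a (p21), Cdkn1b (p27) and Cdkn2a (p16Ink4a and p19Arf), the G-type cyclins were Ccng1 and Ccng2, and the p53 circuit was represented by Trp53 and Mdm2. The 3 remaining genes, Gdf15, Zmat3 and Phlda3, are transcribed under p53 in many cell types. The question put to the data was whether Cdkn1a and Ccng2 moved together with p53 targets when HIF-1α was knocked down.

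The study compared MC-38 cells, a mouse colon carcinoma line carrying GFP, with and without knockdown of HIF-1α, the oxygen-regulated subunit of the hypoxia-inducible transcription factor. In the HIF-1α-KD group Hif1a was stably knocked down, the Mock group was its control, and by the labels the cells of all 6 libraries had been transduced with pLKO.1-puro and not passaged in vivo. Cells were injected into the cecum wall of mice, and living GFP-positive cells without CD45 or CD31 were sorted from the tumors. Poly-A RNA was sequenced from 3 Mock and 3 HIF-1α-KD libraries. Neither the age of the mice nor whether each library stems from 1 tumor is given, so p-values measure the spread between these libraries. Whether the knockdown line is a single clone, and the p53 status of MC-38 cells, are not given in the sources used here.

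CDK inhibitors bind cyclin-dependent kinases, or complexes of these kinases with cyclins, and slow the passage of a cell through its cycle. The transcription factor p53 is held low by the ubiquitin ligase Mdm2, is stabilised after DNA damage and other stress, and then raises transcription of Cdkn1a, Mdm2, Ccng1 and genes of repair and apoptosis. Cdkn1a also has inputs that do not pass through p53, and Ccng2, unlike Ccng1, is best known as a gene raised when growth signals are withdrawn, through FOXO factors, and under low oxygen.

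The start regions of the genes were read first, because p53 and HIF recognise different letters of DNA. RefSeq start windows (GRCm38.p6, 250 bases before to 50 bases after a start) were found for 9 of the 10 genes, 12 windows in all. Zmat3 was the gene without one. Each window is printed 5′ to 3′ on the strand of its gene, for the 3 genes with the lowest levels in HIF-1α-KD relative to Mock cells and for Mdm2, a p53 target set beside them. Capitals mark a p53 half-site or the core of a hypoxia response element. That core is GCGTG or ACGTG, read as CACGC or CACGT where it lies on the other strand. Positions below are in bases from the start, with negative values before it.
Cdkn1a, first start, chr17:29090729-29091028, plus strand: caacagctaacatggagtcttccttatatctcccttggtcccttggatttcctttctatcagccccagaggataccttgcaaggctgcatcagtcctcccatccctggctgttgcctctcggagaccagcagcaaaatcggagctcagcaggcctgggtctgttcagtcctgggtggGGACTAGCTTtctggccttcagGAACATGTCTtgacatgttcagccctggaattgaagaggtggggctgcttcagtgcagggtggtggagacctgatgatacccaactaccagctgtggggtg
Cdkn1a, second start, chr17:29093519-29093818, plus strand: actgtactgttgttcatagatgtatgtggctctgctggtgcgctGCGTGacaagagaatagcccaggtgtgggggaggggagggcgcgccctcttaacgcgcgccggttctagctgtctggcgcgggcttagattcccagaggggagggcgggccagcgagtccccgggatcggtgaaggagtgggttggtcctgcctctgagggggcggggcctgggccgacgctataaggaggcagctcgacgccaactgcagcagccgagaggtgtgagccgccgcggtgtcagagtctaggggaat
Ccng2, chr5:93267323-93267622, plus strand: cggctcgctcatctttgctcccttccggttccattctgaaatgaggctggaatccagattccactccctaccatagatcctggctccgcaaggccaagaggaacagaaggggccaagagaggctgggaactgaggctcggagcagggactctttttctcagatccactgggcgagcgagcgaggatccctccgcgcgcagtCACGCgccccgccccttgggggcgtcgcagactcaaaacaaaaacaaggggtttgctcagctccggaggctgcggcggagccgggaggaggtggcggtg
Cdkn1b, chr6:134920151-134920450, plus strand: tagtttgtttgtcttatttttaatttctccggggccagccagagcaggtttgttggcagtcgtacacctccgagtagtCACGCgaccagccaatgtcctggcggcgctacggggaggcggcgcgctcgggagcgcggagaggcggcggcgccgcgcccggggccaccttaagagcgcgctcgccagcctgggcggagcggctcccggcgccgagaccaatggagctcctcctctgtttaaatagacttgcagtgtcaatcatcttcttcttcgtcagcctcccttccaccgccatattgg
Mdm2, chr10:117710709-117711008, minus strand: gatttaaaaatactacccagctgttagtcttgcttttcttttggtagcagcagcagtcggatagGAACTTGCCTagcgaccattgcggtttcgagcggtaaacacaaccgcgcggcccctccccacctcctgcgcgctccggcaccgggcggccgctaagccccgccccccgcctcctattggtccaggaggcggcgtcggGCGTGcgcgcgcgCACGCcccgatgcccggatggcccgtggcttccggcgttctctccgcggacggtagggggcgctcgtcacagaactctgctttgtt

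The first Cdkn1a window held the p53 half-sites GGACTAGCTT at -73 and GAACATGTCT at -51. By the strict pattern used here this spaced pair counts as a p53 full site, which occurred in 24 of 32851 mouse start windows (0.0731%). Directly after GAACATGTCT the window reads tgacatgttc, which differs from the half-site pattern in 1 letter and was therefore not marked. The marked pair thus need not be the pair that p53 binds. No other window of the 10 genes held a p53 full site. A lone p53 half-site lay in the windows of Mdm2 (GAACTTGCCT at -186), Ccng1 (GGGCAAGCCT at -185) and Trp53 (GGACTTGCCC at -75), against 8.36% of all windows. GCGTG on either strand was found in the second Cdkn1a window at -206, in Ccng2 at -49 and in Cdkn1b at -172, but also in Ccng1 at -97, in Mdm2 at -49 and -36 and in 1 Cdkn2a window, which held the most matches, and it occurred in 32.4% of all windows. ACGTG was found in the windows of Trp53 and Gdf15 and in 19.6% of all windows, and 43.8% held ACGTG or GCGTG, so these short matches are common. The forkhead motif, recognised by FOXO factors, was found in the Mdm2 and in 1 of the Gdf15 windows, against 15% of all windows, and in neither Cdkn1a window nor in Ccng2. These matches are letters in a window and were not measured for binding, and sites outside the windows were not read, for Mdm2 as for the others. The counts used here sum over all transcripts of a gene, so the 2 starts of Cdkn1a cannot be told apart.

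Reads on genes ranged from 20836278 to 25089525 in Mock libraries and from 19845852 to 30809139 in HIF-1α-KD libraries, and a tested gene among the 10 had between 150 and 3526 reads in a library. The targeted gene, Hif1a, had normalized counts (reads divided by 1 factor per library) of 6914, 5424 and 4945 under the Mock condition, compared with 697.3, 3142 and 1928 after knockdown. All 3 HIF-1α-KD libraries were below all 3 Mock libraries, with a log2 fold change of -1.82 (SE 0.46, limma adjusted p = 0.219). Marker genes of cell types were read to describe the sorted cells. Summed leukocyte markers were at 97.5 to 105.1 FPKM for Mock and 66.6 to 363.6 FPKM for HIF-1α-KD, the highest being HIF-1α-KD replicate 3. Of these 8 markers 6 were tested, and Cd3e was below 0.1 FPKM throughout. Endothelial markers summed to 5.36 to 6.32 and to 3.79 to 5.44 FPKM (3 of 5 tested, Emcn below 0.1 FPKM). Fibroblast and pericyte markers summed to 269 to 1552 and to 2217 to 4316 FPKM (6 of 6 tested), with the lowest value in Mock replicate 1. Most of each sum was Col1a1, at 215.7 to 1471 FPKM for Mock and 2147 to 4222 FPKM for HIF-1α-KD. Of the 6 log2 differences 5 were positive, from 0.03 for Pdgfra to 1.99 for Col1a1, and that of Dpt was -0.83. For 2 of the 6 all HIF-1α-KD libraries were above all Mock libraries. Of 6 epithelial markers only Krt8 and Cdh1 passed the count filter, and their list summed to 1.31 to 13.1 and 1.53 to 2.74 FPKM, the 13.1 being Mock replicate 3, which stood apart from 1.31 and 1.42 in the other Mock libraries. Without Mock replicate 3 the log2 differences (HIF-1α-KD minus Mock) were -1.43 for Cdkn1a, -1.96 for Ccng2 and -1.21 for Cdkn1b. The part of other cell types in the values below was not tested, and in sorted bulk cells a lower share of expressing cells and less RNA per cell cannot be told apart.

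Cdkn1a, which encodes the CDK inhibitor p21 and is the best known arrest gene under p53, was the most clearly separated of the inhibitors. Its normalized counts were 1735, 1238 and 2119 for Mock, compared with 604, 484.4 and 544.1 for HIF-1α-KD. The highest HIF-1α-KD library lay below the lowest Mock library, and the means were 1697 ± 442 and 544 ± 59.8 (SD, n = 3 each). On the log2 scale the difference, HIF-1α-KD minus Mock, was -1.61 with an SE of 0.21.

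Cdkn1b encodes p27, an inhibitor that holds cyclin E and cyclin A complexes of quiescent cells and is controlled largely through protein turnover and FOXO-driven transcription. Its counts were 1717, 1217 and 1106 for Mock, compared with 568.6, 619.9 and 697.7 for HIF-1α-KD. The groups did not overlap, and the log2 difference was -1.08 (SE 0.20), from 1347 ± 325 to 629 ± 65.0 (SD, n = 3 each). Mock replicate 1 was the highest Mock library for Cdkn1b, whereas Mock replicate 3 was the highest for Cdkn1a.

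Cdkn2a, whose locus encodes an inhibitor of CDK4 and CDK6 and also p19Arf, an inhibitor of Mdm2, stood on the other side. It had 227.7, 204.8 and 215 normalized counts for Mock, compared with 280.7, 250.6 and 321.1 for HIF-1α-KD. The 3 HIF-1α-KD libraries were above the 3 Mock libraries, by 0.39 on the log2 scale (SE 0.20). The 2 products of the locus share exons and were counted together.

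Ccng2, an atypical cyclin associated with cell cycle exit, had the most negative log2 difference of the 10 genes. Its normalized counts were 935.6, 570.4 and 492.8 for Mock, compared with 197.9, 179.9 and 184.8 for HIF-1α-KD. The HIF-1α-KD libraries lay within 1.10 times of each other, while the Mock libraries spread from 492.8 to 935.6. The means were 666 ± 236 and 188 ± 9.31 (SD, n = 3 each), a log2 difference of -1.77 (SE 0.25).

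Ccng1, the G-type cyclin that is a direct p53 target and acts with the phosphatase PP2A on Mdm2, was much closer between the groups than its relative. Its counts were 3493, 2643 and 2689 for Mock, compared with 2094, 2447 and 2240 for HIF-1α-KD. All HIF-1α-KD libraries were below all Mock libraries, but the gap between the nearest libraries, 2447 and 2643, was small beside the spread within Mock. The log2 difference was -0.37 (SE 0.16).

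Trp53 itself, which encodes p53, had counts of 2128, 2954 and 3032 for Mock, compared with 2836, 2540 and 2609 for HIF-1α-KD. The groups overlapped fully, and the log2 difference was -0.01 (SE 0.17). A transcript level says nothing of the amount or activity of the p53 protein, which is set mainly by its stability.

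Mdm2, the ubiquitin ligase that p53 induces and that degrades p53 in turn, had counts of 1055, 795.2 and 833.5 for Mock, compared with 629.8, 742.2 and 828.2 for HIF-1α-KD. The groups overlapped, with HIF-1α-KD replicate 3 above Mock replicate 2. The log2 difference of -0.28 had an SE of 0.18.

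Zmat3, an RNA-binding zinc finger protein of the p53 pathway, was the flattest gene after Trp53. It had 572.4, 590.5 and 564.1 normalized counts for Mock, compared with 527.6, 580.3 and 529 for HIF-1α-KD, so that the groups overlapped, and the log2 difference was -0.08 (SE 0.15).

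Phlda3, a p53-induced inhibitor of Akt that binds membrane phosphoinositides, lay on the opposite side from Cdkn1a. Its counts were 1398, 1388 and 1167 for Mock, compared with 1880, 2120 and 1406 for HIF-1α-KD, a log2 difference of 0.44 (SE 0.18). The groups did not overlap, but the lowest HIF-1α-KD library, at 1406, was almost level with the highest Mock library, at 1398.

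Gdf15, a secreted stress cytokine of the TGF-β superfamily and a p53 target, was barely detected. Its normalized counts were 1.231, 5.742 and 9.664 for Mock, compared with 8.043, 4.796 and 2.31 for HIF-1α-KD, resting on 1 to 10 reads, and it did not pass the count filter. No difference was detectable at this depth.

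**Figure D1:**
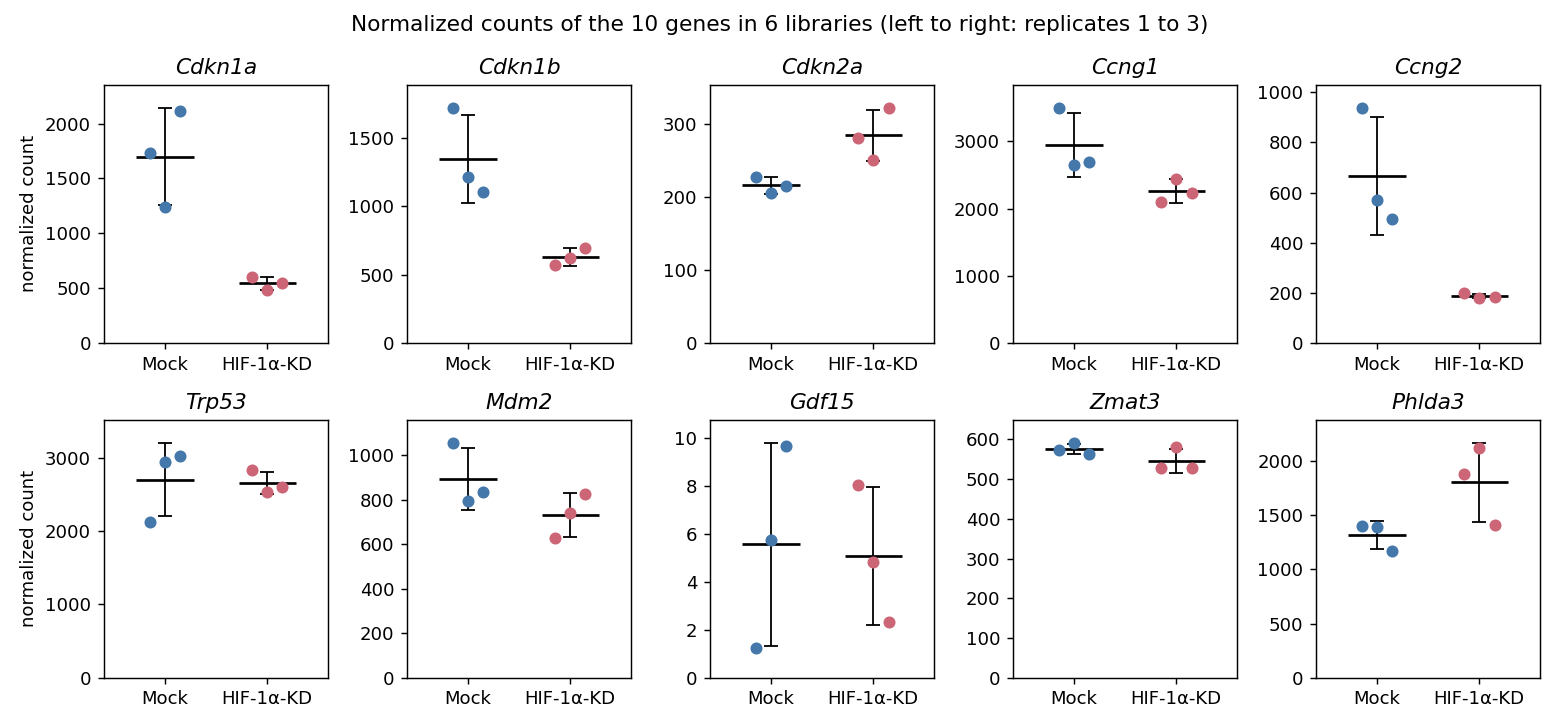
Normalized counts (vertical axes, each starting at 0) of the 10 genes in 3 Mock (blue) and 3 HIF-1α-KD (red) libraries, with the mean (line) and SD (bar). The points of Cdkn1a, Cdkn1b and Ccng2 are far apart between the groups, those of Trp53, Mdm2, Zmat3 and Gdf15 overlap, and Cdkn2a and Phlda3 are higher in HIF-1α-KD libraries.

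Among the 9 genes that passed the count filter, 4 were lower in every HIF-1α-KD library than in every Mock library (Cdkn1a, Cdkn1b, Ccng1 and Ccng2) and 2 were higher in every one (Cdkn2a and Phlda3). Over all 12014 tested genes these shares were 8.75% lower and 10.4% higher. At an adjusted p under 0.05 in limma, 2 of the 9, Cdkn1a and Ccng2, were called lower and 0 higher, with 0.383% of all tested genes called lower and 0.00832% called higher. At an unadjusted p under 0.05, Cdkn1a, Cdkn1b, Ccng1 and Ccng2 were lower and Phlda3 was higher, beside 5.69% of all genes lower and 7.04% higher. On the recovered reads, edgeR called the same 2 genes lower (0.391% of all genes lower, 0.0% higher), and DESeq2 called these and Cdkn1b (1.56% lower, 0.799% higher). Limma without a trend of the variance with the mean called 0 of the 9, and 1 lower and 0 higher over all tested genes. The 10 genes were chosen with this contrast known, so the counts describe them and nothing is read from the shares beside them. Leaving out Mock replicate 1, Mock replicate 3, HIF-1α-KD replicate 2 or HIF-1α-KD replicate 3 left 0 of the 9 called in limma, and leaving out Mock replicate 2 left 1. The log2 differences themselves stayed between -1.82 and -1.43 for Cdkn1a, between -1.96 and -1.50 for Ccng2 and between -1.21 and -0.89 for Cdkn1b whichever library was left out.

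Levels of different genes can be compared per length of transcript, in FPKM. In Mock libraries, Trp53 (59.5 ± 12.1 FPKM), Cdkn1a (57.6 ± 13.4), Ccng1 (54.2 ± 7.69) and Phlda3 (52.7 ± 6.26) formed a top group whose neighbours did not differ beyond their spread (SD, n = 3 each). Mdm2 followed at 21.2 ± 2.84 FPKM, then Cdkn1b at 15.5 ± 3.48, Ccng2 at 13.4 ± 4.50 and Cdkn2a at 9.85 ± 0.276, and the libraries of Ccng2 overlapped those of both Cdkn1b and Cdkn2a. Zmat3 was at 4.67 ± 0.281 FPKM and Gdf15 at 0.152 ± 0.114.

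In HIF-1α-KD libraries the order of the levels differed. Phlda3 was first at 74.7 ± 14.95 FPKM, with libraries that overlapped those of Trp53 at 60.7 ± 2.13, and Ccng1 was at 43.5 ± 4.24. Cdkn1a, at 19.3 ± 1.74 FPKM, was level with Mdm2, at 18.2 ± 2.85, and below Ccng1 in every library. Cdkn2a, at 13.5 ± 1.78 FPKM, was above Cdkn1b, at 7.53 ± 0.931, whereas in Mock libraries Cdkn1b had been above Cdkn2a. Ccng2, at 3.93 ± 0.108 FPKM, was the lowest gene apart from Gdf15, at 0.142 ± 0.0779, and lay just under Zmat3, at 4.60 ± 0.320.

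**Figure D2:**
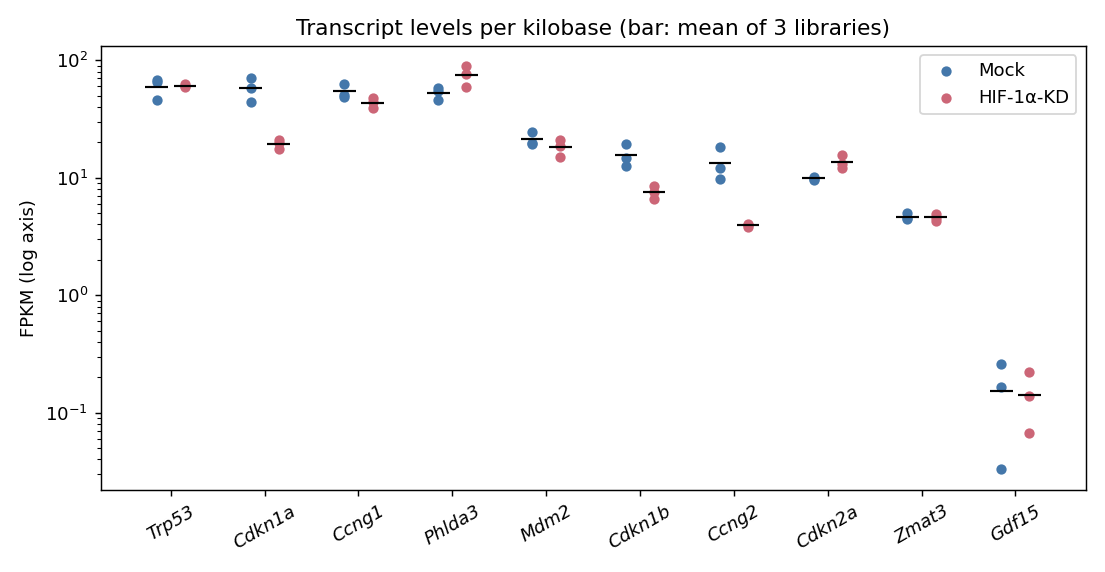
FPKM (log axis) of the 10 genes in each Mock (blue) and HIF-1α-KD (red) library, ordered by the Mock mean, with bars at the mean of 3 libraries. Cdkn1a leaves the top group in HIF-1α-KD libraries (57.6 to 19.3 FPKM) and Ccng2 reaches the level of Zmat3 (3.93 and 4.60 FPKM).

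To see whether Cdkn1a and Ccng2 went with p53 targets, 38 further textbook targets of p53 were listed, of which 37 were in the table and 35 passed the count filter, while Pmaip1 and Perp were below it. Called at an adjusted p under 0.05 were 0 of the 35 in either direction in limma and 0 in edgeR, and 2 higher and 3 lower had an unadjusted p under 0.05 in limma. DESeq2 called Fas higher and Ephx1 lower, beside 0.799% of all tested genes higher and 1.56% lower. Their median log2 difference was -0.12, beside 0.02 over all tested genes, with 15 positive and 20 negative values. By role, the median was -0.26 over 6 arrest genes, -0.22 over 5 DNA repair genes, 0.0033 over 10 apoptosis genes, -0.14 over 9 genes of metabolism and redox balance and 0.04 over 5 others. In all HIF-1α-KD libraries 1 of the 35 (Fas) was higher and 3 (Ephx1, Dcxr and Polk, the last named after its values were seen) were lower than in all Mock libraries, where 10.4% of all tested genes were higher and 8.75% lower. At an unadjusted p under 0.05 in limma these shares of all genes were 7.04% and 5.69%.

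The 4 targets with the lowest p-values pointed in different directions. Fas, a death receptor, had 155.1, 125.4 and 225.9 normalized counts for Mock, compared with 595.2, 568.4 and 289.9 for HIF-1α-KD (log2 difference 1.49, SE 0.33, limma adjusted p = 0.171). Ephx1, a microsomal epoxide hydrolase, had 198.2, 169.4 and 187.2 against 77.21, 75.54 and 64.69 (log2 difference -1.34, SE 0.23, limma adjusted p = 0.0697). The groups were apart for both genes, and HIF-1α-KD replicate 3 was closest to the Mock libraries for Fas but farthest from them for Ephx1. Btg2, an antiproliferative gene, had 379.2, 347.4 and 164.3 against 43.43, 131.9 and 165.2, which overlap (log2 difference -1.49, SE 0.52, limma adjusted p = 0.315). Dcxr, a carbonyl reductase, had a log2 difference of -0.67 (limma adjusted p = 0.371). Sesn2, a stress-induced sestrin named after its values were seen, was the other target with a positive log2 difference and an unadjusted p under 0.05, at 0.47 (limma adjusted p = 0.381).

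Set beside this list, the log2 difference of Cdkn1a was -1.49 from the median of the p53 targets, and 0 of the 35 had a lower value. Ccng2 was -1.65 from the median, again with 0 of the 35 lower, and Cdkn1b was -0.96 from it, with 2 of the 35 lower. The other p53-linked genes among the 10 were nearer, at -0.25 for Ccng1, -0.17 for Mdm2, 0.04 for Zmat3 and 0.55 for Phlda3. A broader list of p53 signalling genes, taken from 15 Gene Ontology terms in the table, gave 90 tested of 100 genes, a median of 0.02 and 0 called in limma, with 9 higher and 7 lower at an unadjusted p under 0.05 (7.04% and 5.69% of all tested genes). DESeq2 called 3 of them lower and 0 higher, beside 1.56% and 0.799% of all tested genes. The 3 were Pttg1ip (limma log2 difference -1.07), Ddit4 (-0.89), which is also among the HIF targets, and Mif (-0.90), named after their values were seen. Cdkn1a and Ccng2 were thus lower while the medians of both p53 lists lay near 0, a comparison described here and not tested.

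**Figure D3:**
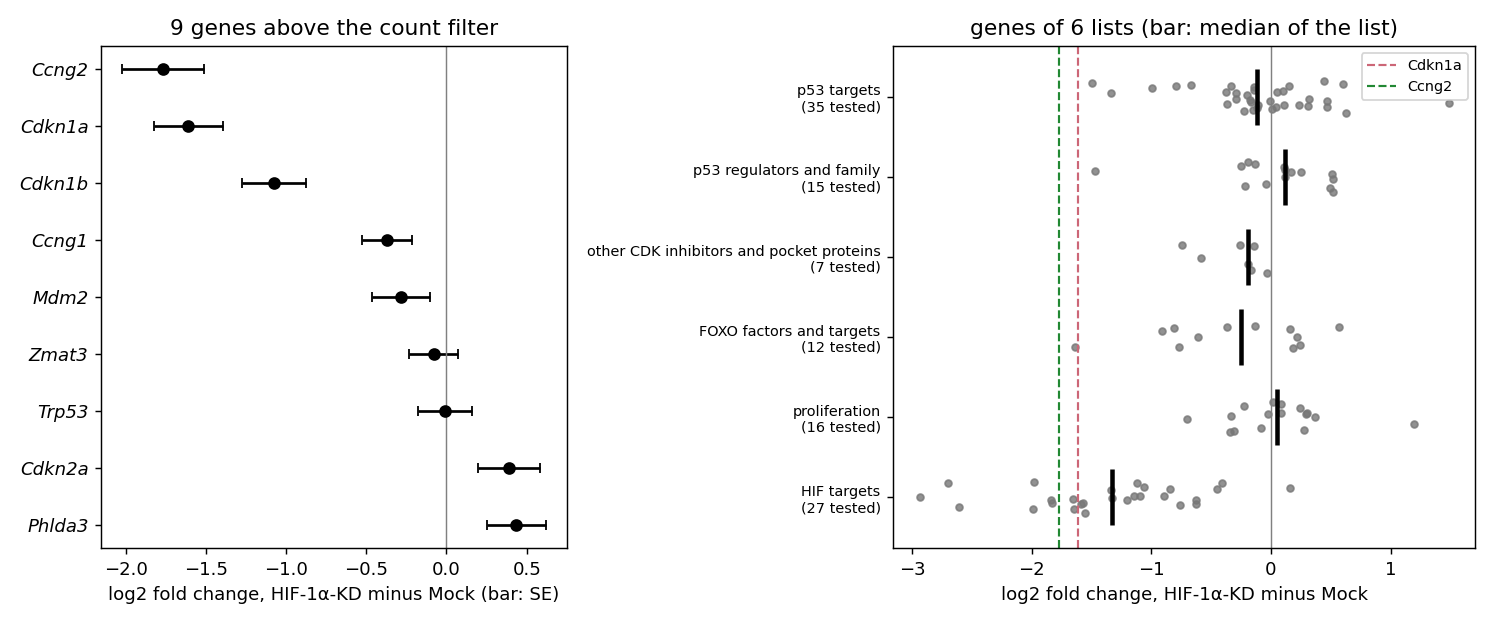
Left, log2 fold changes (HIF-1α-KD minus Mock, bars SE) of the 9 genes above the count filter, from Ccng2 at -1.77 to Phlda3 at 0.44. Right, log2 fold changes of single genes (points) in 6 lists with the median (bar), where dashed lines mark Cdkn1a and Ccng2, which lie below every point of the p53 target list and inside the range of the HIF targets.

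Known HIF targets, 27 genes of glycolysis, mitophagy and oxygen sensing among others, were set beside the same genes as the list nearest to the knockdown. In limma, 15 of the 27 were called lower and 0 higher (0.383% and 0.00832% of all tested genes), and the median log2 difference was -1.33. Without Mock replicate 3 or HIF-1α-KD replicate 2 limma called 0 of the 27, without Mock replicate 1 it called 2, without HIF-1α-KD replicate 3 it called 3 and without Mock replicate 2 it called 5. The 15 were Bnip3, Ankrd37, Ero1l, Slc2a1, Egln1, Bnip3l, Ndrg1, Pdk1, Pgk1, Higd1a, Mxi1, Aldoa, Ldha, Gapdh and Tpi1, from -2.70 for Bnip3 to -1.06 for Tpi1 (limma adjusted p between 0.0205 and 0.0402). The next by p-value were Car9, Eno1, Ddit4 and Bhlhe40, at -2.93, -0.84, -0.89 and -1.12, with a limma adjusted p of 0.0553 for Car9. Cdkn1a and Ccng2 lay among these values, and Cdkn1b lay near Tpi1 and Gapdh, at -1.06 and -1.09.

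Library by library, the centred log2 level of a gene is its log2 normalized count minus its mean over the 6 libraries. For Cdkn1a it was 0.87, 0.38 and 1.16 for Mock, compared with -0.65, -0.97 and -0.80 for HIF-1α-KD. For Ccng2 it was 1.43, 0.72 and 0.51, against -0.81, -0.94 and -0.90. The p53 target list, averaged over its 35 genes, stayed at 0.07, 0.10 and -0.05, compared with -0.06, -0.07 and 0.01. The HIF target list, in contrast, had 0.84, 0.46 and 0.74 against -0.79, -0.72 and -0.52. Within Mock, Cdkn1a and the HIF list were both lowest in replicate 2, whereas Ccng2 and Cdkn1b were lowest in replicate 3. Within HIF-1α-KD, Hif1a spanned 4.51-fold between libraries, while Ccng2 spanned 1.10-fold, Cdkn1b 1.23-fold and Cdkn1a 1.25-fold. The library with the least Hif1a, HIF-1α-KD replicate 1, was the highest of its group for Cdkn1a and Ccng2 and the lowest for Cdkn1b and the HIF list.

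**Figure D4:**
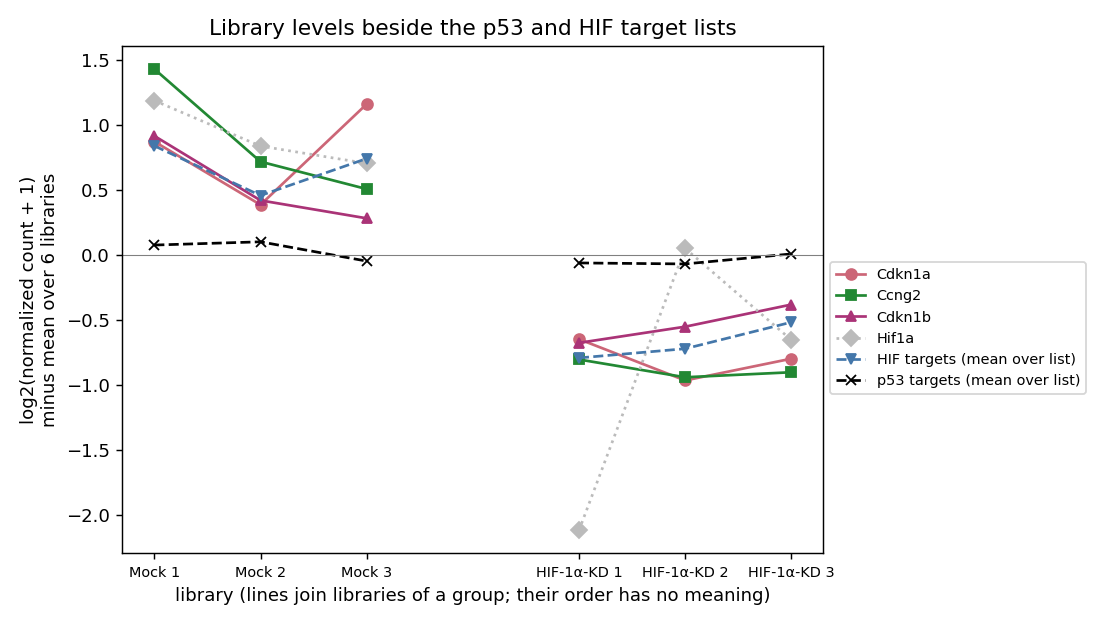
Centred log2 levels in each of the 3 Mock and 3 HIF-1α-KD libraries for Cdkn1a, Ccng2, Cdkn1b and Hif1a, and the means of the HIF target list and of the p53 target list. The p53 list stays between -0.07 and 0.10 in all libraries, while Cdkn1a, Ccng2 and the HIF list are above 0 in Mock and below 0 in HIF-1α-KD libraries.

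Likeness of pattern was measured over the 6 libraries as the root mean square difference between centred log2 levels, among 12014 genes. Nearest to Cdkn1a were Ndrg1 (0.183), Sap30 (0.191), Slc2a1 (0.214), Itpk1 (0.216) and Hilpda (0.227). Nearest to Ccng2 were Bnip3l (0.167), Ero1l (0.172), Prelid2 (0.209), Egln1 (0.214) and Fam162a (0.222). The p53 targets came later, with Ephx1 first at rank 12 for Cdkn1a and rank 21 for Ccng2, and a median rank of 5848 and 4214. Cdkn1b stood at rank 34 and Cdkn1a at rank 40 for Ccng2, behind many genes outside the 10. Within the first 100 ranks were 15 of the 27 HIF targets and 1 of the 35 p53 targets for Cdkn1a, and the same numbers for Ccng2. Because the measure includes the step between the groups, it repeats the contrast by which the genes were selected and is a description.

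Around the 10 genes, other parts of the cell cycle circuit were read as lists. Of the other CDK inhibitors and pocket proteins, 7 of 8 were tested, all 7 had negative log2 differences with a median of -0.19, and 0 were called in limma. Over all 12014 tested genes 5682 had negative log2 differences, the median was 0.02, and at an unadjusted p under 0.05 in limma 5.69% were lower and 7.04% higher. Cdkn2d (p19Ink4d, -0.74) and Rb1 (the retinoblastoma protein, -0.59) had an unadjusted p under 0.05, and Cdkn3 (-0.26) and Rbl1 (-0.19) came next by p-value. The 19 cyclins, CDKs and E2F factors had a median of 0.05 and 0 called, with Cdc25a (0.52), E2f2 (0.77) and Ccne1 (0.72) higher and Ccnb1 (-0.76) lower at an unadjusted p under 0.05. The 16 proliferation markers had a median of 0.05 and 0 called in limma, edgeR or DESeq2, and at an unadjusted p under 0.05 there were 0 in limma and DESeq2 and 1 lower in edgeR (Bub1). Bub1, Mki67, Aurkb and Mcm2 had the lowest p-values there, with log2 differences of -0.35, 1.19, -0.70 and 0.36.

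Upstream of the 10 genes, 15 of 16 regulators and relatives of p53 were tested, with a median of 0.11 and 0 called in limma. Usp10, a deubiquitinase of p53, and Trp53bp1, a DNA damage adaptor, were higher at an unadjusted p under 0.05 (log2 differences 0.52 and 0.49), followed by Ep300 (0.52) and Usp7 (0.25). Of 14 regulators of Cdkn1a and Cdkn1b 0 were called in limma, with a median of -0.11. Klf6 and Egr1, zinc finger factors known to raise Cdkn1a, were at -1.26 and -1.59 with an unadjusted p under 0.05, and Klf4 (-0.61) and Cul1 (0.25) came next. The 12 FOXO factors and targets had a median of -0.25 and 0 called, and Klf2 (-1.64), Txnip (-0.91), Pik3ip1 (-0.77) and Cited2 (-0.81) were lower at an unadjusted p under 0.05, a cut that 5.69% of all tested genes passed as lower and 7.04% as higher. Of these 2 lists, DESeq2 called Klf6, Klf2 and Txnip lower, beside 1.56% of all tested genes.

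Each of the 10 genes lies on a chromosome of its own except for Ccng1 and Trp53, both on chromosome 11. No gene among them shares an exon with another gene on its strand in the GRCm38 annotation. Cdkn1a (chr17:29090976-29100727, plus strand) overlaps an exon of AC167363.2 on the opposite strand, and the library kit kept strand. Ccng2 lies at chr5:93267257-93276231 and Cdkn1b at chr6:134920401-134925513, both on the plus strand. Without HIF-1α-KD replicate 3, the library with the highest leukocyte markers, the log2 differences were -1.61 for Cdkn1a, -1.76 for Ccng2 and -1.15 for Cdkn1b, against -1.61, -1.77 and -1.08 with it.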

How the data were processed

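Sorted MC-38 tumor cells gave 6 RNA-seq libraries, and the condition in the labels assigned 3 to Mock and 3 to HIF-1α-KD. Per the study's methods the authors used STAR for alignment, featureCounts for counting and DESeq2 for testing, while the submitters' processing notes list STAR, edgeR and GRCm38. The methods name the human assembly GRCh38, but the gene identifiers are of mouse. The deposited normalized count is a signal, the count that the authors obtained per gene divided by 1 factor per library, and the authors also deposited FPKM. The deposited log2 ratio, p-value and false discovery rate columns hold the authors' own comparison and were not used.

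Reads were recovered by multiplying by the factor, and 100% of values up to 300 reads came out whole within 0.1 read. Genes were filtered with filterByExpr (minimum count 10), which left 12014 of 22880. The main test was limma 3.58.1 (trend of the variance with the mean) on log2(normalized count + 1), two-sided, with Benjamini-Hochberg adjustment over all tested genes. Fold changes are on that scale and understate those of low genes. As alternatives, edgeR 4.0.16 (quasi-likelihood) called 47 genes lower and 0 higher, and DESeq2 1.42.0 called 187 lower and 96 higher, on the recovered reads. The calling was tested on simulated data. The reads per library, given in the report, limit the precision for low genes.

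The 10 genes and all lists were chosen with earlier results of these data known, so the contrast of the 10 carries no test. Besides the 10 genes and Hif1a, the genes named are, in each list, those at an adjusted p under 0.05 and up to 4 more with the lowest p, and the 5 nearest in pattern to Cdkn1a and to Ccng2. A few further genes are named as below the count filter or after their values were seen. Start windows are from RefSeq (GRCm38.p6) and loci from the GENCODE annotation of GRCm38.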

Additional observations from a re-analysis of the deposited data

How the results depend on the processing

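Under every setting tried, the log2 differences of Cdkn1a, Cdkn1b, Ccng1, Ccng2, Mdm2 and Zmat3 remained negative and those of Cdkn2a and Phlda3 positive, while Trp53 lay between -0.17 and 0.08. The distance of Cdkn1a from the median of the p53 targets ranged from -1.79 to -1.30 when a library was left out and from -1.63 to -1.48 under the other alternatives. For Ccng2 these ranges were -1.83 to -1.47 and -1.79 to -1.61.

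The number of calls was less firm. Over all 12014 tested genes, limma called 46 lower and 1 higher at an adjusted p under 0.05, whereas DESeq2 called 187 lower and 96 higher, edgeR called 0 higher, and limma without a trend called 1 lower and 0 higher. Leaving out a library gave 0 to 32 lower and 0 to 6 higher. Of the p53 targets, with 0 called, DESeq2 called 1 lower and 1 higher, an unadjusted p under 0.05 gave 3 lower and 2 higher, and adding a fold change of at least 1.5 gave 3 lower and 1 higher. Leaving out a library gave 0 and 0. Of the 10 genes, with 2 called, limma without a trend called 0 and leaving out a library gave 0 to 2, a count chosen after seeing the data. Of the 27 HIF targets, with 15 called lower, limma without a trend called 0, leaving out a library gave 0 to 12, and the other alternatives without a block gave 13 to 20, also chosen after seeing the data. With a replicate block, limma called 0 genes lower, 0 higher and 0 of the 10. Deviations of libraries with the same number correlated between -0.139 and 0.0228, and those with different numbers between -0.0716 and 0.162. With 3 libraries per group these values cannot settle whether the numbers pair the libraries. The cause of these changes was not tested. Depth limits Gdf15, which had 10 reads at most.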
